A study of Mus musculus with 18 samples.

Results

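The IL-1 family transcripts described here are 8 genes, chosen by name as cytokines of the family, their natural inhibitors and the receptors they use, and found under those names among the 55450 genes of the deposited table. They are the ligands Il1a, Il1b and Il18, the secreted inhibitors Il1rn and Il18bp, and the receptor genes Il1r1, Il1r2 and Il1rap. No measured value was used to choose them. All 8 passed the filter on low values, which asked for 3 or more libraries with an FPKM (fragments per kilobase of transcript, scaled to sequencing depth) of 1 or more and left 12025 genes. Il1r1 passed it with only 3 libraries, all of WT cells without apigenin, so that its test rests on a gene that those WT cells alone brought into the tested set.

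The libraries were poly(A)-selected RNA from mouse bone marrow-derived macrophages (BMDMs), grown in L929-conditioned medium and primed with 20 ng/ml GM-CSF for 24 hours before a 6-hour treatment. There were 6 groups of 3 libraries. In CD38KO + MSU and WT + MSU, BMDMs from Cd38 knockout or wild-type mice were given 0.2 mg/ml monosodium urate (MSU) crystals, the crystals that form in gouty joints. WT + MSU + apigenin also received 25 uM apigenin, a plant flavonoid that inhibits the NAD-consuming enzyme CD38, and WT + apigenin received apigenin without crystals. CD38KO non-treated and WT non-treated cells received neither. Every group, controls included, had been primed with GM-CSF, so no library shows cells without that cytokine. The study calls its replicates biological, but the labels do not tie a library to a mouse, and p-values measure the spread between these libraries. For the 6 libraries with apigenin, the title and the treatment entry of each label contradict each other. The titles, which match the column names of the table, were used, and a result under the treatment entries is given beside the main one where its call or direction differs. In bulk RNA, fewer cells of a type and less RNA per cell cannot be told apart.

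Total counts per library ran between 51058336 and 83209648. Cd38 was at 0.303 to 1.17 CPM (counts scaled to an equal library size with TMM factors) in CD38KO and at 18.5 to 93.4 CPM in WT, which fits the genotype labels. All 7 macrophage markers were detected in both genotypes, with a summed level of 10520 to 22000 CPM in CD38KO and 17290 to 22770 CPM in WT without apigenin. With apigenin the sum was 45140 to 60630 CPM. The WT libraries fell into 2 sets. Ifi202b, Gbp2b and Cd1d2, genes whose expression is known to differ between inbred strains, were at 8.08 to 153, 12.7 to 302 and 0.858 to 2.58 CPM in the 8 WT libraries of replicates 1 and 2. They were at most 0.196, 0.489 and 0 CPM in the 4 WT libraries of replicate 3, and at most 0.207, 0.994 and 0 CPM in CD38KO. Ngp, a neutrophil granule gene, parted the libraries in the same way (29.0 to 87.9 CPM against at most 1.59 CPM in WT replicate 3 and 2.82 CPM in CD38KO). So did S100a8, S100a9, Camp and Ltf of the 9 neutrophil markers. Mmp8 did not, and was highest in replicate 3 of every WT group (493 CPM in WT + MSU, against 192 and 123 CPM). The 9 markers summed to 354 to 931 CPM in WT replicates 1 and 2, 508 to 1649 CPM in WT replicate 3 and 347 to 688 CPM in CD38KO. Xist was at 54.1 to 83.8 CPM in WT replicate 3 of every group and in replicate 1 of WT + MSU and WT + MSU + apigenin. Its level did not exceed 0.291 CPM in the remaining 12. The 6 fibroblast markers summed to 82.5 to 316 CPM in CD38KO and to 574 to 6704 CPM in WT. Calls of members that were lost with the WT groups reduced to replicate 3, which leaves 1 library a group, or to replicates 1 and 2 are therefore given with their values.

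IL-1α and IL-1β, encoded by Il1a and Il1b, bind the same receptor, IL1R1, which then recruits the accessory protein IL1RAP and signals through MYD88 and the IRAK kinases. IL-1β is made as an inactive precursor that caspase-1 cuts once an inflammasome such as NLRP3 has assembled, and MSU crystals are a classical trigger of NLRP3. A pair of brakes acts outside the cell. IL1RN, the receptor antagonist, occupies IL1R1 without signalling, and IL1R2 is a decoy receptor that binds IL-1 and cannot signal. IL-18, also a caspase-1 substrate, is held by IL18BP, its soluble binding protein.

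Il1a, Il1b and Il1rn lie on mouse chromosome 2, where Il1a (129299610 to 129309972) and Il1b (129364570 to 129371139) are neighbours on the minus strand and Il1rn (24336853 to 24351494) is on the plus strand. These positions are those of GENCODE M21 on GRCm38, whose gene IDs include all 55450 of the table. Il1r2 (40074079 to 40125231) and Il1r1 (40225080 to 40317257) lie on chromosome 1, Il1rap on chromosome 16 (26581704 to 26730117), Il18 on chromosome 9 (50554827 to 50581840) and Il18bp on chromosome 7 (102014885 to 102018690).

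The promoters of the 3 members with the highest levels in WT + MSU are shown with that of Il18, whose level moved little with crystals. The sequences are RefSeq windows of GRCm38.p6, from 250 bases before a transcription start up to the first base of an annotated exon, 5′ to 3′ on the gene's strand. For Il1rn, the windows of 2 of its 3 annotated starts are shown, and the gene counts do not tell which start was used. Motifs were searched in the full 250 bases, exonic ones included. Capitals mark matches, on either strand, to TATAAA (the TATA box), TTNNGNAA (C/EBP), TGANTCA (AP-1) and GAGGAA (PU.1).
Il1a, chr2:129309973-129310222, minus strand: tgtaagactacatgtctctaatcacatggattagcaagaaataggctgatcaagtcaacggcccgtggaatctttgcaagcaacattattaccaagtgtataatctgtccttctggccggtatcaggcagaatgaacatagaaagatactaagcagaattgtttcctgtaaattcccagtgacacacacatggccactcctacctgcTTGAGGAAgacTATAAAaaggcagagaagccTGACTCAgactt
Il1b, chr2:129371140-129371389, minus strand: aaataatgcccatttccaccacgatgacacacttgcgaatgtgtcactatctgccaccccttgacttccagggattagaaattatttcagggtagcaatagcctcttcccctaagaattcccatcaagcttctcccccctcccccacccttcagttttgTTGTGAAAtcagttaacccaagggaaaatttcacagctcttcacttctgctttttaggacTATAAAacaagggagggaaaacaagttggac
Il1rn first start, chr2:24336610-24336852, plus strand: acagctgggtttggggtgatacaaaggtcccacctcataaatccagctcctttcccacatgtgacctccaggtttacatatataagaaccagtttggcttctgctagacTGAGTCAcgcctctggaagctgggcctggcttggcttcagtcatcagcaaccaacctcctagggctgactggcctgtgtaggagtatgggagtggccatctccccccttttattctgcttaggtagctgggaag
Il1rn second start, chr2:24345041-24345287, plus strand: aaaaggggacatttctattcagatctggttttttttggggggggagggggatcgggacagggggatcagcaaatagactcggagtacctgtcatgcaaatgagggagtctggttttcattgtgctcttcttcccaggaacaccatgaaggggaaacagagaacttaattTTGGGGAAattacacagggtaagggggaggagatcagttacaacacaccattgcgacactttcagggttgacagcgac
Il18, chr9:50554450-50554699, plus strand: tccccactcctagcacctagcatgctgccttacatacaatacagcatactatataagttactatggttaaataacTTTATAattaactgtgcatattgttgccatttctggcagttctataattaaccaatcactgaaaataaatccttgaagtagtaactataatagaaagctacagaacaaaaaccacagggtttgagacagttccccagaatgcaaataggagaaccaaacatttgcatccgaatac
TATAAA lay 32 to 27 bases before the start of Il1a and 31 to 26 bases before that of Il1b, and 12.4% of all 32851 promoter windows of this length held it. In Il18 its match lay 175 to 170 bases before the start. TTNNGNAA was found in 7 of the 11 windows of the members, against 36.8% of all windows, and the match of Il18bp lay in an annotated exon. In Il1a it overlapped the GAGGAA match, a motif in 23.3% of windows. TGANTCA was in the windows of Il1a and Il1rn, against 6.75% of all. TGACGTCA (CRE) was in no member and in 1.55% of windows. TTCNNNGAA (STAT) was in the window of Il1r2, where it reached into an annotated exon, and in 7.02% of all, and an NF-kB site was in that of Il1r1 and in 7.25% of all. Such matches describe letters in these windows and were not tested as sites.

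**Figure D1:**
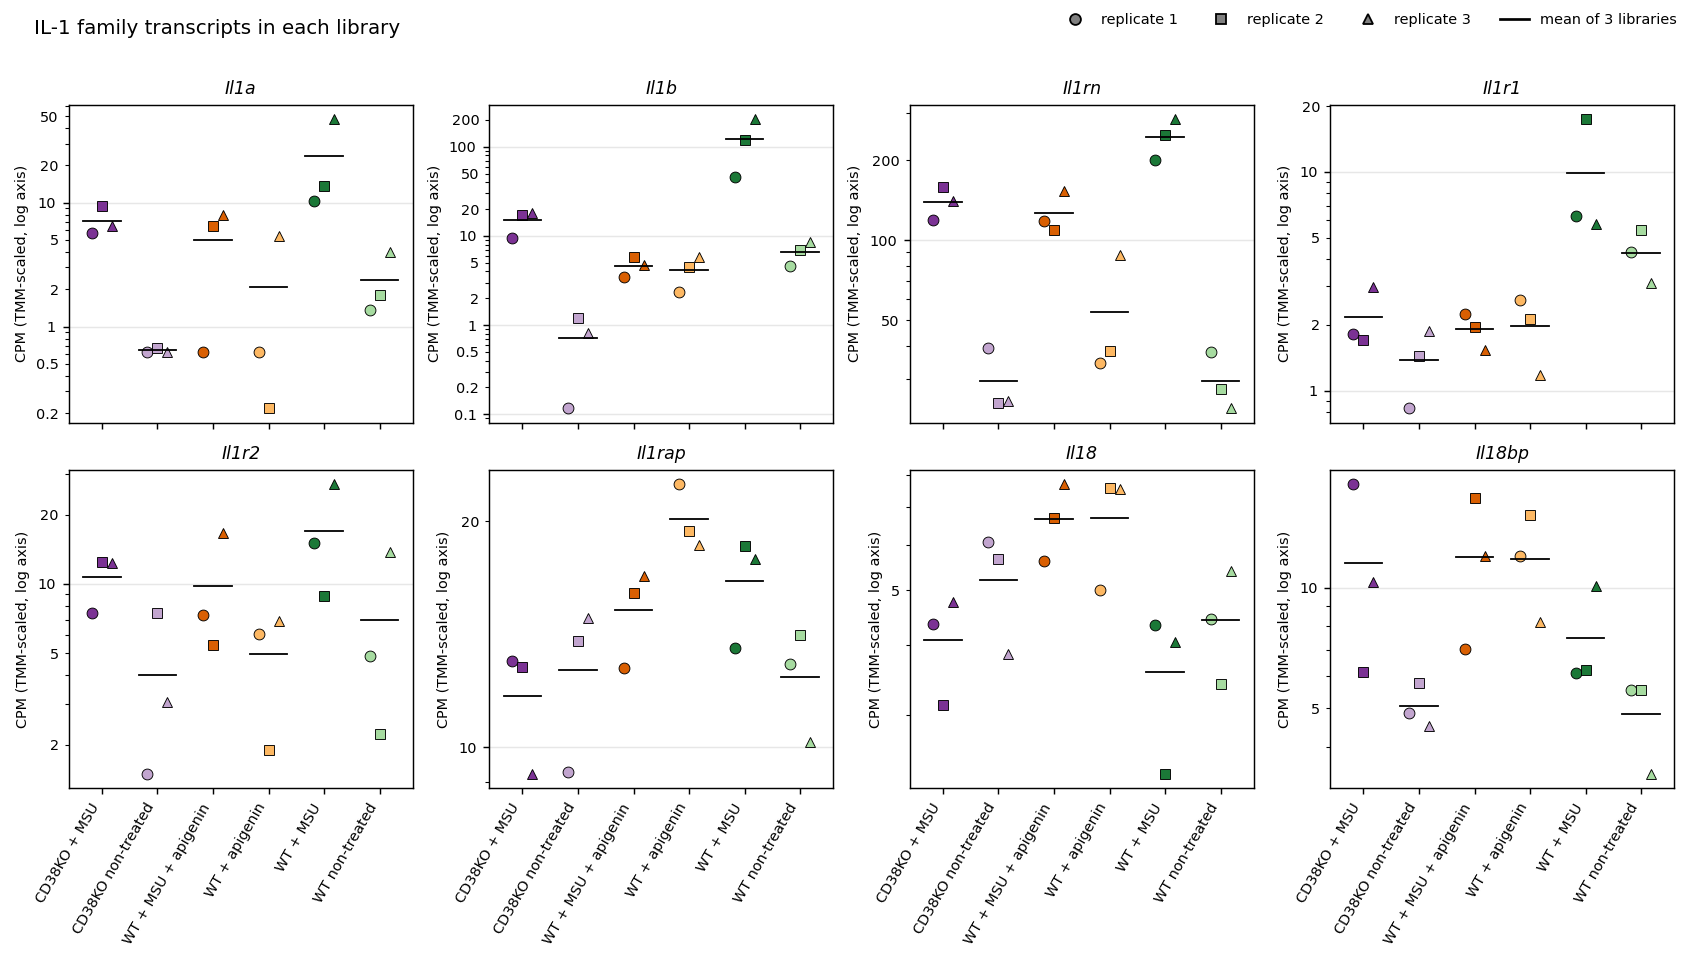
CPM of each of the 8 members (log axes, CPM scaled by TMM factors) in each of the 18 libraries by group, with replicates 1, 2 and 3 as circle, square and triangle and the mean of 3 libraries as a bar. Il1b and Il1rn stood highest in WT + MSU (46.0 to 204 and 200.5 to 285 CPM), while Il1rap and Il18 stayed within 9.22 to 22.4 and 2.37 to 7.69 CPM in all 18 libraries.

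Levels of different genes can be set side by side only per length. In FPKM, Il1rn was the highest member in 5 of the 6 groups, and in WT + MSU it came second, at 46.2 ± 6.13 FPKM (SD, n = 3), to Il1b at 66.6 ± 39.3 FPKM. Il1r1 was the lowest member in all groups but WT + MSU, with means of 0.197 to 0.763 FPKM in those 5 groups. In the non-treated cells the members closest to Il1rn were Il18, at 5.14 ± 1.11 FPKM in CD38KO and 4.76 ± 0.769 FPKM in WT.

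MSU crystals in WT BMDMs raised Il1b and Il1rn. Il1b had 46.0, 121 and 204 CPM in WT + MSU, against 4.57, 6.87 and 8.64 CPM in WT non-treated cells. All crystal-treated libraries thus lay above all non-treated ones, although they spread widely among themselves. The log2 fold change was 4.21 ± 0.69 (SE, adjusted p = 0.00266, edgeR's quasi-likelihood test with Benjamini-Hochberg adjustment over 12025 genes). Every adjusted p in this report comes from that test, except where DESeq2 or limma is named. Il1rn had 200.5, 248 and 285 CPM in WT + MSU, against 38.0, 27.7 and 23.3 CPM in WT non-treated cells, and rose by 3.04 ± 0.34 on the log2 scale (adjusted p = 0.000289). For the antagonist, too, the groups did not overlap.

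A gene was called when its adjusted p was under 0.05 and its log2 fold change at least 1 in size. By this rule 2 of the 8 members were called higher with crystals in WT and none lower, against 2.03% of all tested genes called higher and 1.55% called lower. Il1a did not pass the test in spite of a log2 fold change of 3.31 ± 1.04 (adjusted p = 0.074). It had 10.2, 13.7 and 47.2 CPM in WT + MSU, against 1.35, 1.81 and 3.98 CPM in WT non-treated cells, so the groups did not overlap. Il1a passed with DESeq2 (3.35, adjusted p = 0.00505) and, on log2(FPKM + 0.5), with limma (2.60, adjusted p = 0.0136). In 5 of 8 members (Il1a, Il1b, Il1rn, Il1r1 and Il18bp) every crystal-treated library was above every control library, as in 14.8% of all tested genes.

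The receptors gave smaller differences. Il1r1 had 6.31, 17.4 and 5.78 CPM in WT + MSU, against 4.29, 5.42 and 3.10 CPM in WT non-treated cells (log2 fold change 1.20 ± 0.46, adjusted p = 0.146). Replicate 2 of WT + MSU stood apart, and that library also had the highest fibroblast marker sum of the WT libraries without apigenin (3827 CPM), a coincidence whose part in the result was not tested. The decoy Il1r2 had 15.0, 8.89 and 27.0 CPM in WT + MSU, against 4.87, 2.23 and 13.8 CPM in WT non-treated cells, and the groups overlapped (1.29 ± 0.72, adjusted p = 0.356). In both groups of Il1r2 the highest value was that of replicate 3 and the lowest that of replicate 2. Il1rap had 13.6, 18.6 and 17.8 CPM against 12.9, 14.1 and 10.2 CPM, also overlapping.

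Neither Il18 nor its inhibitor passed the test with crystals in WT. Il18 had 4.34, 2.37 and 4.05 CPM in WT + MSU, against 4.45, 3.41 and 5.40 CPM in WT non-treated cells. For Il18bp the values were 6.13, 6.24 and 10.1 CPM in WT + MSU, against 5.54, 5.54 and 3.43 CPM in WT non-treated cells (log2 fold change 0.63 ± 0.40, adjusted p = 0.427). The separation of the Il18bp groups came mostly from replicate 3, the highest crystal-treated and the lowest control library. With the WT groups reduced to replicate 3, no member passed the test (Il1b 4.56, adjusted p = 0.278, and Il1rn 3.61, adjusted p = 0.0599), and with replicates 1 and 2 the calls of Il1b (3.86, adjusted p = 0.0334) and Il1rn (2.77, adjusted p = 0.00172) held.

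In CD38KO BMDMs crystals raised the same pair. Il1b had 9.42, 17.3 and 18.3 CPM in CD38KO + MSU, against 0.116, 1.21 and 0.814 CPM in CD38KO non-treated cells, and rose by 4.39 ± 0.71 on the log2 scale (adjusted p = 0.00426). Il1rn had 118.5, 159 and 140.0 CPM in CD38KO + MSU, against 39.4, 24.4 and 24.8 CPM in CD38KO non-treated cells, and rose by 2.24 ± 0.33 (adjusted p = 0.00251). These 2 of 8 members were called higher and none lower, with 1.52% and 0.482% of all tested genes called in the same directions. The call of Il1b was lost when the CD38KO groups were fitted alone (4.40, adjusted p = 0.0551). It was also lost when the WT groups in the fit were reduced to replicate 3 (4.39).

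Il1a had 5.67, 9.32 and 6.51 CPM in CD38KO + MSU, against 0.625, 0.671 and 0.628 CPM in CD38KO non-treated cells. The groups did not overlap, and the test did not pass (3.48 ± 1.06, adjusted p = 0.0893). The fit shares 1 estimate of the spread over all 6 groups, and with the CD38KO groups fitted alone Il1a passed (3.49, adjusted p = 0.0201). Il1r2 had 7.50, 12.4 and 12.3 CPM in CD38KO + MSU, against 1.50, 7.48 and 3.07 CPM in CD38KO non-treated cells (1.42 ± 0.73, adjusted p = 0.353). All treated Il1r2 libraries were above all controls, the lowest of them by a small margin. Il18bp had 18.1, 6.17 and 10.3 CPM in CD38KO + MSU, against 4.87, 5.79 and 4.51 CPM in CD38KO non-treated cells (1.19 ± 0.40, adjusted p = 0.13), a difference carried mainly by replicate 1. Il1r1 (0.64 ± 0.46, adjusted p = 0.546), Il1rap and Il18 did not pass either, with Il1rap at 13.1, 12.8 and 9.22 CPM in CD38KO + MSU against 9.29, 13.9 and 14.9 CPM in CD38KO non-treated cells. Every treated library was above every control library in 5 of 8 members (Il1a, Il1b, Il1rn, Il1r2 and Il18bp), as in 13.4% of all tested genes.

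**Figure D2:**
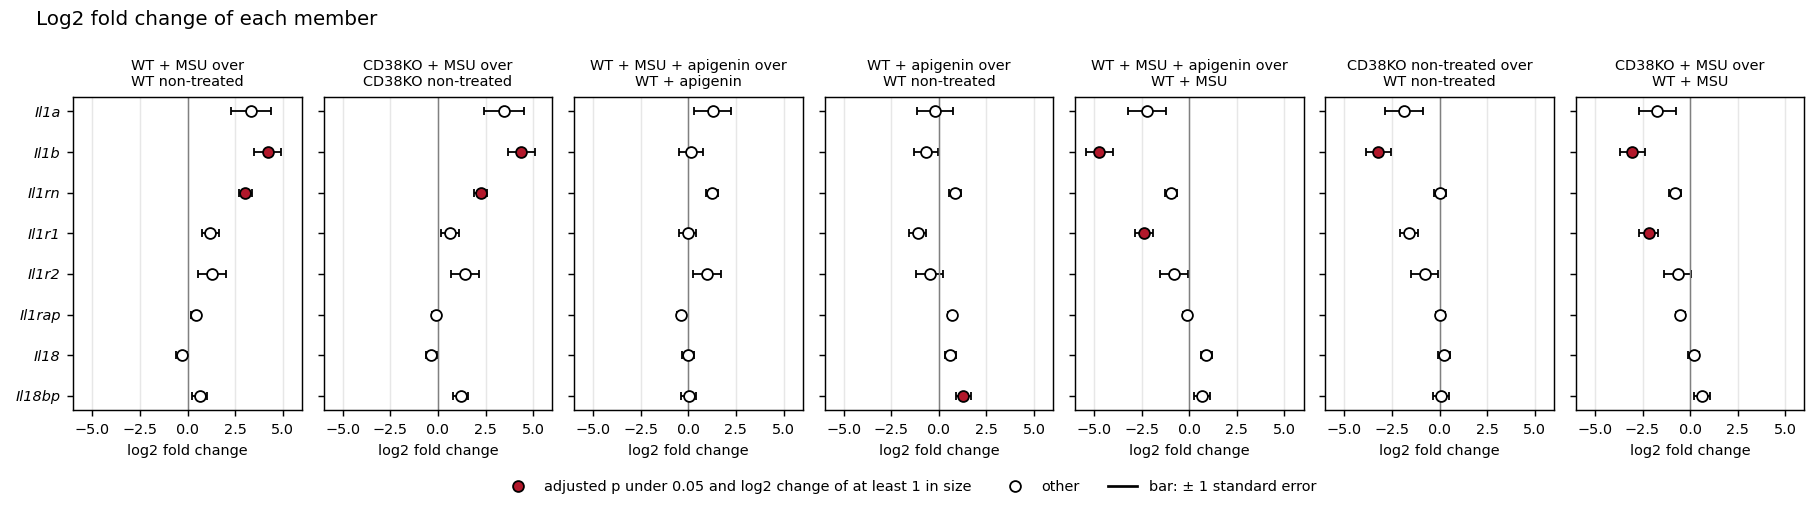
Log2 fold change of each member in 7 comparisons (x axis, first-named group over second, bars ± 1 SE), filled where the gene was called. Il1b was called in 5 of the 7 comparisons, Il1rn in both crystal comparisons without apigenin, Il1r1 in 2 and Il18bp in 1.

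The knockout was compared with WT in the same state of treatment. Il1b was lower in CD38KO with and without crystals. In CD38KO non-treated cells it had 0.116, 1.21 and 0.814 CPM, against 4.57, 6.87 and 8.64 CPM in WT non-treated cells, with a log2 fold change of -3.22 ± 0.67 (adjusted p = 0.00907). Under crystals it had 9.42, 17.3 and 18.3 CPM in CD38KO + MSU, against 46.0, 121 and 204 CPM in WT + MSU, with a log2 fold change of -3.04 ± 0.65 (adjusted p = 0.0208). The groups did not overlap in either state. In non-treated cells Il1b was the one member called lower, with none higher, against 3.96% of all tested genes called lower and 0.366% called higher. Under crystals Il1b and Il1r1 were called lower, against 2.65% lower and 0.715% higher among all tested genes. Il1r1 had passed the filter through WT libraries without apigenin alone, so the filter favoured its lower call.

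These calls depended on which WT libraries were used. WT replicate 3 matched CD38KO in Ifi202b, Gbp2b, Cd1d2 and Ngp, but not in Xist. Xist was at 54.1 to 83.8 CPM there and at most 0.116 CPM in CD38KO. WT replicates 1 and 2 differed from CD38KO in Ifi202b, Gbp2b, Cd1d2 and Ngp, so no WT library matched CD38KO in all these genes. Genotype and these differences between libraries cannot be told apart in any comparison of CD38KO with WT. The replicate 3 fibroblast marker sum, 574 CPM without and 649 CPM with crystals, exceeded the CD38KO maxima of 162 and 316 CPM. With WT reduced to replicate 3, 1 library a group, both Il1b calls were lost. The Il1b difference was as large, at -3.59 in non-treated cells and -3.77 under crystals. With WT replicates 1 and 2 it passed in both states (-2.99, adjusted p = 0.0223, and -2.47, adjusted p = 0.0469). Fitting the 2 compared groups alone ended both calls (adjusted p = 0.0834 and 0.0718). Under crystals the call was also lost without WT + MSU replicate 2 (-3.06, adjusted p = 0.0716), WT + MSU replicate 3 (-2.47, adjusted p = 0.0501) or CD38KO + MSU replicate 1 (-2.79, adjusted p = 0.116).

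Il1r1, the signalling receptor, had 1.81, 1.71 and 2.96 CPM in CD38KO + MSU, against 6.31, 17.4 and 5.78 CPM in WT + MSU, with a log2 fold change of -2.19 ± 0.48 (adjusted p = 0.0224). Without WT + MSU replicate 2 it was -1.48 (adjusted p = 0.138), without CD38KO + MSU replicate 1 -2.07 (adjusted p = 0.119) and without CD38KO + MSU replicate 2 -2.04 (adjusted p = 0.0519). With WT replicate 3 alone it was -1.42 (adjusted p = 0.512), with WT replicates 1 and 2 -2.46 (adjusted p = 0.00838), and with the compared groups alone -2.24 (adjusted p = 0.0966). In non-treated cells Il1r1 had 0.828, 1.44 and 1.88 CPM in CD38KO, against 4.29, 5.42 and 3.10 CPM in WT (-1.63 ± 0.47, adjusted p = 0.0658). The genotypes did not overlap in either state. The fibroblast markers followed the same order, at 149 to 316 CPM in CD38KO + MSU against 649 to 3827 CPM in WT + MSU, and at 82.5 to 162 CPM in CD38KO non-treated cells against 574 to 2643 CPM in WT non-treated cells. Of these 6 markers, 4 were called lower in CD38KO under crystals and all 6 in non-treated cells. Over all tested genes 2.65% and 3.96% were called lower. Lum and Pdgfra reached 1 FPKM in WT libraries only, so the filter favoured their lower calls. The part of the markers in the Il1r1 result was not tested.

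**Figure D3:**
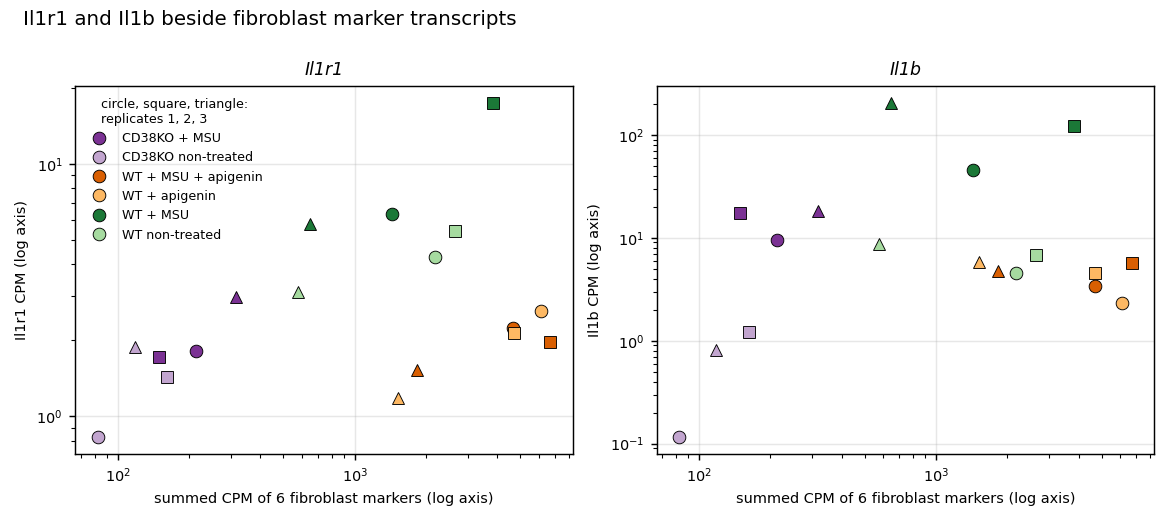
CPM of Il1r1 (left) and Il1b (right) in each library against the summed CPM of the 6 fibroblast markers (log axes), with groups by color and replicates by shape. All CD38KO libraries lie at marker sums of at most 316 CPM, and the 6 libraries with apigenin combine marker sums of 1526 to 6704 CPM with Il1r1 of at most 2.60 CPM.

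The other members did not pass the test between genotypes. Il1rn had 118.5, 159 and 140.0 CPM in CD38KO + MSU, against 200.5, 248 and 285 CPM in WT + MSU, so the groups did not overlap (-0.81 ± 0.32, adjusted p = 0.164). In non-treated cells Il1rn averaged 29.5 ± 8.53 CPM in CD38KO and 29.7 ± 7.56 CPM in WT. Il1a had 5.67, 9.32 and 6.51 CPM in CD38KO + MSU, all below the 10.2, 13.7 and 47.2 CPM of WT + MSU (-1.73 ± 0.98, adjusted p = 0.348), and with WT reduced to replicate 3, a lone library, it was at -2.72. In non-treated cells Il1a was also below WT in every CD38KO library (-1.89 ± 1.01, adjusted p = 0.453, and -2.63 with WT replicate 3 alone). Il1r2 overlapped between the genotypes (-0.79 ± 0.72, adjusted p = 0.768, in non-treated cells and -0.66 ± 0.71, adjusted p = 0.663, under crystals), as did Il18 and Il18bp. Il1rap was below WT in every CD38KO library under crystals, at 13.1, 12.8 and 9.22 CPM in CD38KO + MSU against 13.6, 18.6 and 17.8 CPM in WT + MSU (-0.51 ± 0.22, adjusted p = 0.213).

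Whether crystals acted differently in CD38KO and WT was tested as the difference between the crystal responses. For Il1b this difference was 0.18 ± 0.86 on the log2 scale (adjusted p = 1), and for Il1rn -0.81 ± 0.45 (adjusted p = 1). edgeR called 0 of 8 members and 0 of 12025 genes (0% higher and 0% lower), with 427 genes at an unadjusted p under 0.05, and DESeq2 called 20 genes. The 95% interval of the Il1b difference ran from -1.50 to 1.86, so that a difference of the size of the calling threshold was not detectable with these libraries.

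Apigenin under crystals lowered Il1b and Il1r1. Il1b had 3.43, 5.74 and 4.73 CPM in WT + MSU + apigenin, against 46.0, 121 and 204 CPM in WT + MSU, with a log2 fold change of -4.73 ± 0.71 (adjusted p = 5.98e-05). The apigenin libraries lay within or below the range of WT non-treated cells (4.57 to 8.64 CPM). Il1r1 had 2.24, 1.96 and 1.53 CPM in WT + MSU + apigenin, against 6.31, 17.4 and 5.78 CPM in WT + MSU, with a log2 fold change of -2.37 ± 0.48 (adjusted p = 0.000786). The groups were fully apart for both genes. Other measures moved in the same comparison. Mitochondrial genes took 11.1 to 13.3% of counts in WT + MSU + apigenin, against 4.68 to 6.03% in WT + MSU, and the 20 most abundant genes 26.9 to 29.7% against 14.4 to 17.3%. Of the 7 macrophage markers, 3 were called higher with apigenin and none lower. The part of these measures in the results with apigenin was not tested. These 2 of 8 members were called lower and none higher, against 25.8% of all tested genes called lower and 18% called higher. Since Il1r1 had passed the filter through WT libraries without apigenin alone, the filter favoured its lower call.

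With so many genes called, a call in this comparison says little by itself. That of Il1b held under all 30 alternatives, from -5.43 to -4.17. The Il1r1 call was lost with WT replicate 3 alone (-1.92, adjusted p = 0.0961). Fibroblast markers summed to 1829 to 6704 CPM in WT + MSU + apigenin, against 649 to 3827 CPM in WT + MSU, and these ranges overlap. Their part in the Il1r1 difference was not tested.

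Il1a and Il1rn were lower with apigenin under crystals by less certain amounts. Il1a had 0.622, 6.51 and 7.98 CPM in WT + MSU + apigenin, against 10.2, 13.7 and 47.2 CPM in WT + MSU (-2.23 ± 1.00, adjusted p = 0.0673), and passed with the replicate number as a block (-2.21, adjusted p = 0.0307), which brings the members called to 3. Under the treatment entries it was also called (-3.51, adjusted p = 0.0111). Il1rn had 118, 109.5 and 152 CPM in WT + MSU + apigenin, against 200.5, 248 and 285 CPM in WT + MSU (-0.95 ± 0.32, adjusted p = 0.019), and missed the fold threshold. Every Il1rn library with apigenin was above every WT non-treated library (23.3 to 38.0 CPM), whereas Il1b was not. Il1rn was called without TMM factors (-1.67, adjusted p = 0.000115) and under the treatment entries (-2.19, adjusted p = 7.67e-05).

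The apigenin libraries had lower TMM factors than the others (0.666 to 0.837 against 1.06 to 1.32), so the direction of small differences depended on the scaling. Scaling by library totals gave a median log2 fold change of all genes of -0.764 under crystals, against -0.053 with TMM, and of -0.718 without crystals, against -0.024 with TMM. Il18 had 5.62, 6.70 and 7.69 CPM in WT + MSU + apigenin, against 4.34, 2.37 and 4.05 CPM in WT + MSU (0.90 ± 0.30, adjusted p = 0.0201, and 0.18, adjusted p = 0.613, by library totals). Il18bp had 7.03, 16.7 and 12.0 CPM in WT + MSU + apigenin, against 6.13, 6.24 and 10.1 CPM in WT + MSU (0.67 ± 0.40, adjusted p = 0.161), and its direction flipped by library totals (-0.01). Il1r2 overlapped (-0.80 ± 0.72, adjusted p = 0.352), and Il1rap averaged 15.3 ± 2.21 CPM in WT + MSU + apigenin and 16.7 ± 2.69 CPM in WT + MSU.

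Apigenin without crystals gave no call for a ligand. Il1b had 2.33, 4.51 and 5.78 CPM in WT + apigenin, against 4.57, 6.87 and 8.64 CPM in WT non-treated cells (-0.67 ± 0.61, adjusted p = 0.377). It was lower with apigenin at each of the 3 replicate numbers, and limma on log2(FPKM + 0.5) called it (-1.14, adjusted p = 0.0346), while the replicate block did not (-0.74, adjusted p = 0.123). Il1a had 0.624, 0.218 and 5.38 CPM in WT + apigenin, against 1.35, 1.81 and 3.98 CPM in WT non-treated cells, and replicate 3 was the highest in both groups. Its 95% interval, from -2.09 to 1.70 on the log2 scale, leaves a change in either direction undetectable. Il18bp was the one member called, higher with apigenin, against 13.1% of all tested genes called higher and 22.2% called lower. It had 12.0, 15.2 and 8.22 CPM in WT + apigenin, against 5.54, 5.54 and 3.43 CPM in WT non-treated cells (1.29 ± 0.40, adjusted p = 0.0155). The call was lost by library totals (0.61, adjusted p = 0.261), with limma on log2(FPKM + 0.5) (0.49, adjusted p = 0.266), without WT non-treated replicate 3 (1.09, adjusted p = 0.0611) and without WT + apigenin replicate 2 (1.07, adjusted p = 0.0601). It was also lost with WT replicate 3 alone, which leaves 1 library a group (1.26).

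Il1rap and Il1rn passed the p-value but not the fold, and Il1r1 the fold but not the p-value. Il1rap had 22.4, 19.4 and 18.6 CPM in WT + apigenin, against 12.9, 14.1 and 10.2 CPM in WT non-treated cells (0.70 ± 0.22, adjusted p = 0.0172), and was at 0.0023 by library totals (adjusted p = 0.996). Il1rn had 34.6, 38.4 and 87.7 CPM in WT + apigenin, against 38.0, 27.7 and 23.3 CPM in WT non-treated cells (0.85 ± 0.32, adjusted p = 0.037). Its difference rested on replicate 3, with 1.91 in replicate 3 alone, 1 library a group, and 0.15 in replicates 1 and 2 (adjusted p = 0.644). Under the treatment entries Il1rn was called (2.09, adjusted p = 0.000113). Il1r1 had 2.60, 2.13 and 1.18 CPM in WT + apigenin, against 4.29, 5.42 and 3.10 CPM in WT non-treated cells, without overlap (-1.12 ± 0.47, adjusted p = 0.0583). Il1r1 was called by library totals (-1.79, adjusted p = 0.00978), DESeq2 (-1.05, adjusted p = 0.0451) and under the treatment entries (-1.16, adjusted p = 0.0479). Il18 was at 0.60 ± 0.30 (adjusted p = 0.109), and at -0.09 by library totals.

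Crystals in cells kept in apigenin changed no member past the threshold. Il1b had 3.43, 5.74 and 4.73 CPM in WT + MSU + apigenin, against 2.33, 4.51 and 5.78 CPM in WT + apigenin. Il1rn was the member nearest to a call, with 118, 109.5 and 152 CPM in WT + MSU + apigenin, against 34.6, 38.4 and 87.7 CPM in WT + apigenin (1.24 ± 0.32, adjusted p = 0.306). The Il1rn groups did not overlap, and without WT + apigenin replicate 3 it was called (1.79, adjusted p = 0.0273). Il1a (1.28 ± 0.98, adjusted p = 1) and Il1r2 (0.98 ± 0.72, adjusted p = 1) overlapped. edgeR called 0 of 8 members, and 0.0166% of all tested genes higher and 0.0416% lower, while DESeq2 called 1 member, Il1rn. At an unadjusted p under 0.05 stood 743 genes. Under the treatment entries of the labels, which exchange the 2 groups, every sign in this paragraph turns round.

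The difference between the crystal responses with and without apigenin was called for Il1b alone, at -4.06 ± 0.89 on the log2 scale (adjusted p = 0.0406), against 0.358% of all tested genes called higher and 0.69% called lower. It was past the threshold in 14 of 30 alternatives, always with the same sign, from -4.85 to -3.44. Leaving out any one of 12 of the 18 libraries ended the call (adjusted p = 0.0514 to 0.104). For Il1rn the difference was -1.80 ± 0.45 (adjusted p = 0.0614). It passed in 5 alternatives, namely library totals (-1.75, adjusted p = 0.0422), DESeq2 (-1.83, adjusted p = 0.00792), limma at both pseudocounts (-1.67, adjusted p = 0.0305, and -1.70, adjusted p = 0.0429) and the treatment entries (-4.28, adjusted p = 0.00108).

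The balance between inhibitor and ligand transcripts follows from these values. The ratio of Il1rn to Il1b FPKM was 0.480 to 1.50 in WT + MSU, against 0.929 to 2.88 in WT non-treated cells, and 2.63 to 4.35 in CD38KO + MSU, against 7.06 to 125 in CD38KO non-treated cells. With apigenin it was 6.58 to 11.8 under crystals, against 2.96 to 5.26 without them. Crystal-treated WT cells were thus the only group in which Il1b exceeded Il1rn in most libraries (2 of 3). The highest ratio, 125, belongs to CD38KO non-treated replicate 1, where Il1b was at 0.116 CPM. The ratio of decoy Il1r2 to receptor Il1r1 was above 1 in all 18 libraries, from 1.37 in WT non-treated replicate 2 to 36.6 in WT + MSU + apigenin replicate 3. In all 4 WT groups the highest such ratio was that of replicate 3 and the lowest that of replicate 2. Replicate 3 also had the lowest fibroblast marker sum of each WT group, whose part in the ratio was not tested.

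**Figure D4:**
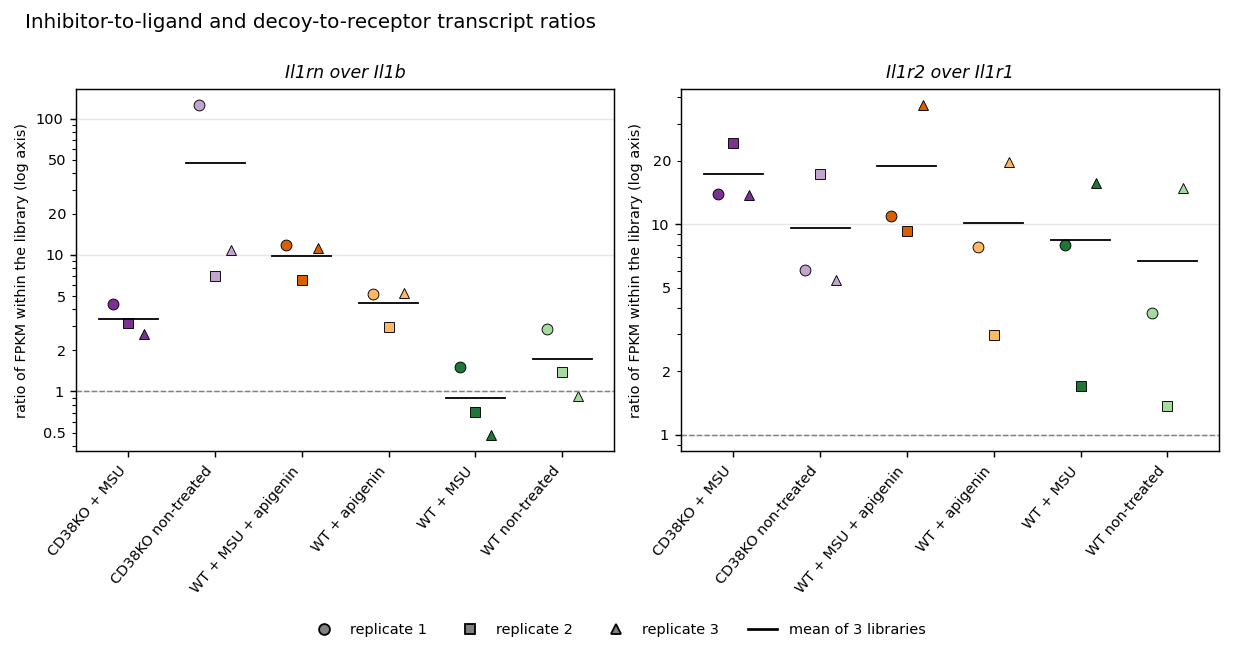
Ratio of Il1rn to Il1b FPKM (left) and of Il1r2 to Il1r1 FPKM (right) within each library (log axes, dashed line at 1), by group and replicate with the mean of 3 libraries as a bar. Il1rn over Il1b was below 1 in replicates 2 and 3 of WT + MSU and in replicate 3 of WT non-treated cells only.

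Across the 18 libraries Il1b and Il1a ran most closely together among the members (Pearson r = 0.799 on log2 CPM), followed by Il1a with Il1rn (0.784) and with Il1r2 (0.775). Il18 went the other way from Il1r1 (-0.690). The genes most like Il1b were Csf1, the macrophage growth factor (0.941), the cytokine Lif (0.931) and Ptgs2, the inducible cyclooxygenase (0.926). For Il1a they were Tnf (0.922), Hbegf (0.892) and Ccrl2 (0.886), and for Il1rn Zdhhc18 (0.903), Fosb (0.901) and the chemokine Cxcl2 (0.897). Il1r1 was most like Medag (0.925), the hyaluronan synthase Has2 (0.921) and Fgf7 (0.919). Il1r2 was most like Il12rb1 (0.892), Il1rap like Ipo7 (0.872), Il18 like March2 (0.904) and Il18bp like Ifi27l2a (0.819), with 2 further genes each at 0.801 to 0.900. The 18 points share groups, and the WT libraries differed by replicate number, so the coefficients describe the 18 libraries only.

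The rest of the family was sparse. Of 13 other family genes in the table, only the IL-33 receptor Il1rl1 and the IL-36 receptor Il1rl2 passed the filter, and neither was called in any comparison. Il1rl1 averaged 3.74 ± 1.86 CPM in CD38KO + MSU and 16.4 ± 6.29 CPM in WT + MSU. Il1rl2 had 6.01, 8.12 and 10.4 CPM in WT + MSU, against 15.9, 17.5 and 20.0 CPM in WT non-treated cells. Among the genes below the filter were Il33, with at most 69 counts in a library, and the IL-18 receptor chains Il18r1 and Il18rap, with at most 101 and 362.

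Of the IL-1 receptor signalling genes, 23 were tested. Crystals raised 1 of them in WT, the NF-kB subunit gene Nfkb1 (267 ± 73.4 CPM in WT + MSU and 104 ± 17.5 CPM in WT non-treated cells, log2 fold change 1.36 ± 0.34, adjusted p = 0.0287), and none in CD38KO. Over all tested genes 2.03% were called higher with crystals in WT and 1.52% in CD38KO. The Nfkb1 call was lost in 10 of 30 alternatives, which ran from 1.12 to 1.51. Apigenin under crystals lowered 12 and raised 1, with a list median of -1.09 against -0.053 for all genes, and apigenin alone lowered 8 (median -0.70). Over all tested genes 25.8% were called lower and 18% higher under crystals, and 22.2% lower with apigenin alone. Irak2, a kinase recruited to the receptor, was at 8.23 ± 5.53 CPM in WT + MSU + apigenin and 69.4 ± 26.9 CPM in WT + MSU (-3.07 ± 0.55, adjusted p = 0.000255). The adaptor Tab3 (-3.01, adjusted p = 2.56e-05), the ubiquitin ligase Peli1 (-2.40) and the RNase gene Zc3h12a (-1.92, adjusted p = 0.0228) were next in size. With WT replicate 3 alone, apigenin under crystals lowered 5 of 23. Between CD38KO and WT none of the 23 was called in either state. Over all tested genes 2.65% were called lower and 0.715% higher under crystals, and 3.96% and 0.366% in non-treated cells. With shares this low, the absence of a call says little about these genes.

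Among 17 genes of IL-1 processing and release, crystals raised Nlrp3 and Casp4 in WT, against 2.03% of all tested genes called higher. Nlrp3, the crystal-responsive inflammasome sensor, had 124, 183 and 128.5 CPM in WT + MSU, against 31.1, 30.1 and 22.7 CPM in WT non-treated cells (2.38 ± 0.37, adjusted p = 0.00213). Casp4, the mouse caspase-11 gene, was also the one gene of the list raised in CD38KO (1.18 ± 0.28, adjusted p = 0.0343). Over all tested genes 1.52% were called higher there. The Casp4 call was lost in 14 of 30 alternatives in WT (0.90 to 1.26) and in 10 of 30 in CD38KO (0.79 to 1.45). Under crystals the knockout had less Nlrp3, at 32.8, 94.6 and 41.8 CPM in CD38KO + MSU against 124, 183 and 128.5 CPM in WT + MSU (-1.36 ± 0.36, adjusted p = 0.0471). It had more of the adaptor gene Pycard, at 58.5 ± 23.6 CPM in CD38KO + MSU and 24.5 ± 4.69 CPM in WT + MSU (1.25 ± 0.29, adjusted p = 0.0278). The Nlrp3 difference between genotypes lost its call in 17 of 30 alternatives, among them the compared groups alone (-1.42, adjusted p = 0.149), without WT + MSU replicate 2 (-1.16, adjusted p = 0.213) and without CD38KO + MSU replicate 1 (-1.09, adjusted p = 0.192). That of Pycard was lost in 7 of 30 (0.87 to 1.50). With 1 WT library a group (replicate 3) no gene of the list was called in these comparisons, at log2 fold changes of 2.50 for Nlrp3 with crystals in WT, and of -1.19 for Nlrp3 and 1.14 for Pycard in CD38KO under crystals. Apigenin under crystals lowered 6 and raised 4 of the 17, among them Casp1, which encodes the enzyme that cuts pro-IL-1β, at 30.1 ± 2.97 CPM in WT + MSU + apigenin and 121 ± 14.7 CPM in WT + MSU (-2.004 ± 0.19, adjusted p = 1.22e-06). Over all tested genes 25.8% were called lower and 18% higher. Nlrp3 fell by 2.39 in the same comparison (adjusted p = 8.73e-05), with 27.1, 37.7 and 18.2 CPM in WT + MSU + apigenin, against 124, 183 and 128.5 CPM in WT + MSU. By library totals this split was 11 lower and 0 higher.

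Of the genes that IL-1 is known to induce, 14 were tested. Crystals raised 8 in WT (list median 3.82 against -0.034 for all genes) and 5 in CD38KO (median 5.08 against -0.008, or 4.44 with Csf2, which had no count in CD38KO non-treated cells, set to its lower bound), lowered none, and changed none in apigenin. Over all tested genes 2.03% were called higher in WT and 1.52% in CD38KO. The list was chosen with results of these libraries known and gives no independent evidence of a direction. Csf2 had no count in non-treated cells of either genotype, so treated libraries alone brought it past the filter. For such genes the filter favoured a call of higher with crystals. Il6 had 19.25, 58.3 and 12.0 CPM in WT + MSU, against 0.242, 0.193 and 0 CPM in WT non-treated cells (7.67 ± 1.56, adjusted p = 0.0101). Csf2, the GM-CSF gene, had 1.89, 2.60 and 1.56 CPM in WT + MSU and no count in WT non-treated cells, at least 59.8-fold higher against a floor of 3 counts per library. Cxcl1, a neutrophil attractant, had 61.1, 182 and 52.6 CPM in WT + MSU, against 2.92, 3.73 and 1.17 CPM in WT non-treated cells (5.24 ± 0.63, adjusted p = 0.000435). In CD38KO the Cxcl1 response was 6.17 ± 0.67 (adjusted p = 0.00022). With WT replicate 3 alone, 1 library a group, 0 of the 14 were called in WT at a list median of 4.13.

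Apigenin under crystals lowered 8 of the 14 induced genes and raised none (median -1.80), against 25.8% of all tested genes called lower and 18% higher, led by Il6 (-6.28 ± 1.47, adjusted p = 0.00211), Ccl20 (-5.76 ± 1.36, adjusted p = 0.00231) and Ptgs2 (-4.13 ± 0.73, adjusted p = 0.000236). Ptgs2 had 16.3, 15.2 and 16.4 CPM in WT + MSU + apigenin, against 192, 451 and 196 CPM in WT + MSU. In CD38KO, 4 of the 14 were called lower than in WT under crystals (median -2.16) and 3 in non-treated cells (median -2.04). Ptgs2, Cxcl1 and Cxcl3 were called in both states, against 2.65% and 3.96% of all tested genes called lower. Under crystals the Cxcl1 call was lost in 18 of 30 alternatives, and its log2 fold change was -1.26 without WT + MSU replicate 2 (adjusted p = 0.305). With 1 WT library a group (replicate 3) 0 were called in either state, at -2.34 and -2.27 for Ptgs2, -2.33 and -3.11 for Cxcl3 and -1.15 and -1.82 for Cxcl1 with and without crystals. Apigenin alone raised 2, the chemokine Cxcl3 (1.95 ± 0.42, adjusted p = 0.00149) and the collagenase Mmp13 (1.70 ± 0.66, adjusted p = 0.0435). The Mmp13 call was lost in 14 of 30 alternatives, among them library totals (0.96, adjusted p = 0.195), the treatment entries (1.45, adjusted p = 0.0752) and without WT + apigenin replicate 3 (1.08, adjusted p = 0.204). The crystal response differed with apigenin for 4 of the 14, Il6, Cxcl3, Cxcl1 and Ptges, each lower (-9.36 to -2.86). Of all tested genes, 0.69% were called lower and 0.358% higher. The Il6 call was lost in 13 of 30 alternatives, among them the treatment entries (-5.97, adjusted p = 0.122). That of Cxcl1 was lost in 10, that of Ptges in 2 and that of Cxcl3 in 1.

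**Figure D5:**
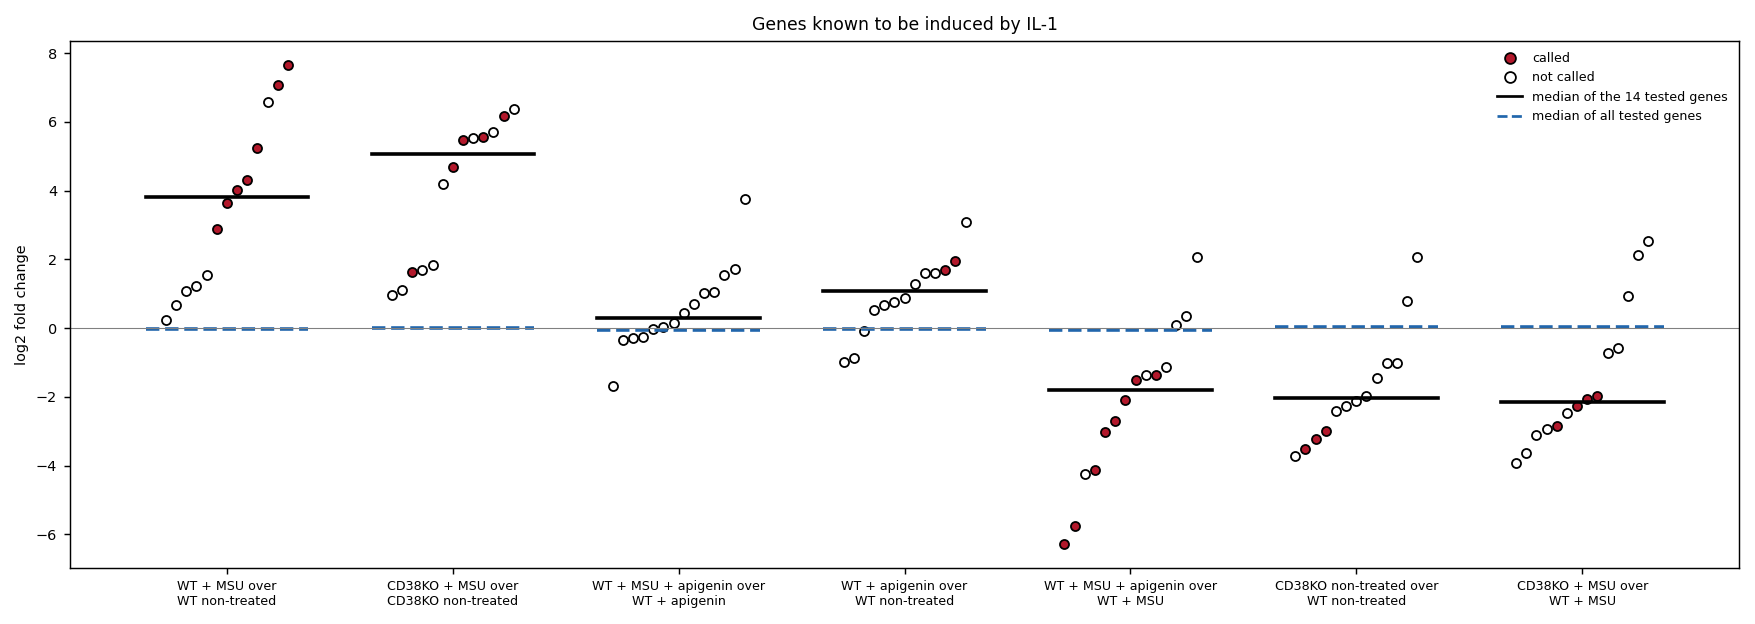
Log2 fold change (y axis) of the genes that IL-1 is known to induce, each a point, in 7 comparisons, filled where called, with the median of the 14 tested genes (black line) and of all tested genes (blue dashed line). Csf2 is not drawn where a group had no count. The list median was 3.82 with crystals in WT, -1.80 with apigenin under crystals and -2.16 in CD38KO under crystals.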

How the data were processed

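The 18 libraries were stranded poly(A) RNA-seq. The authors deposited 1 table of whole-number counts per gene and of FPKM values, with 1 column per library and none pooled, in which a gene without counts is listed at 0.0001 FPKM. Tools listed by the submitters' processing notes are HISAT2, StringTie, edgeR, cutadapt and FastQC. Their versions and the genome build are not given in the sources used here. A second deposited table holds the authors' own log2 ratios of selected genes and was not used.

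The counts were fitted with edgeR 4.0.16 in R 4.3.3 (quasi-likelihood test, TMM, 1 model of 6 groups), over the 12025 of 55450 genes that reached 1 FPKM in 3 or more libraries. Calls needed a log2 fold change of 1 or more in size and a p under 0.05 after Benjamini-Hochberg adjustment. CPM values use TMM-scaled totals. The SE is the log2 fold change divided by the root of the F statistic. The code was tested on simulated data. Log2 fold changes of members are given where they reach 0.5 in size, and in the interactions for Il1b and Il1rn.

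Each pathway list names up to 4 called genes with the largest fold change per comparison, and each member the 3 genes with the highest correlation. The members and lists were chosen with earlier results of these data known. Ifi202b, Gbp2b, Cd1d2, Xist, the neutrophil and fibroblast markers named singly, and the genes named below the filter or without a call were chosen after their values were seen. Same-numbered libraries deviated together in the 3 comparisons that involve only apigenin and its partners (r = 0.164 to 0.527 for crystals with apigenin, 0.221 to 0.546 for apigenin alone and 0.124 to 0.377 for apigenin under crystals). They also did so with crystals in WT (0.096 to 0.533). Some differently numbered libraries did too, as WT + apigenin replicate 1 with WT non-treated replicate 2 (0.319). Xist was at 0.073 CPM in replicate 1 of WT + apigenin and at 56.8 CPM in replicate 1 of WT + MSU + apigenin. The numbers were therefore not taken as pairs, and the main fit had no block. Alternatives were RLE factors, library totals, DESeq2 1.42.0, limma 3.58.1 on log2(FPKM + 0.5) and log2(FPKM + 0.1), other filters, the compared groups alone, a replicate block, each library left out, the treatment entries of the labels, and the WT groups reduced to replicate 3 (a lone library assumed to vary like the CD38KO groups) or to replicates 1 and 2.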

Additional observations from a re-analysis of the deposited data

Results flagged for a closer look

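The crystal response of Il1b differed between WT cells with and without apigenin by an interaction term of -4.06 on the log2 scale (SE 0.89, adjusted p = 0.0406, edgeR's quasi-likelihood test). Il1b had 3.43, 5.74 and 4.73 CPM in WT + MSU + apigenin, against 2.33, 4.51 and 5.78 CPM in WT + apigenin, and 46.0, 121 and 204 CPM in WT + MSU, against 4.57, 6.87 and 8.64 CPM in WT non-treated cells.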

How the results depend on the processing

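Over 30 alternatives, the number of the 8 members called was close to that of the main analysis except as follows. With crystals in WT it was 0 with WT replicate 3 alone, against 2, and with crystals in CD38KO 4 with DESeq2, against 2. With crystals in apigenin it was 1 with DESeq2 and 1 with WT replicates 1 and 2, against 0. For apigenin alone it was 2 with DESeq2 and 3 under the treatment entries of the labels, against 1, and for apigenin under crystals 4 with library totals, both limma pseudocounts and the treatment entries, against 2. For CD38KO in non-treated cells it was 2 with DESeq2, 0 with the compared groups alone and 2 with WT replicates 1 and 2, against 1, and under crystals 0 with the compared groups alone and 1 with WT replicate 3, against 2. For the difference of crystal responses with apigenin it was 2 with library totals, DESeq2, both limma pseudocounts and the treatment entries, and 0 with filterByExpr, no filter, WT replicate 3 and WT replicates 1 and 2, against 1. Leaving out 1 library gave 0 to 1 members for crystals in apigenin, 1 to 2 for apigenin alone, 2 to 4 for apigenin under crystals, 1 to 2 and 0 to 2 for CD38KO without and with crystals, and 0 to 1 for the difference of responses with apigenin. Where no cause is evident from fewer libraries, the cause was not tested.

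Directions turned in 16 cases. Under the treatment entries, crystals in apigenin gave -1.28 for Il1a, -1.24 for Il1rn and -0.98 for Il1r2, since the groups are exchanged. Il18 with apigenin alone was at -0.094 by library totals and -0.067 and -0.073 with limma at pseudocounts of 0.5 and 0.1. Il18bp with apigenin under crystals was at -0.015, -0.035 and -0.050 in the same order. Il1r2 in CD38KO non-treated cells was at 0.18 with WT replicates 1 and 2, and between -1.61 and 0.18 with 1 library left out. The Il1b difference of crystal responses between genotypes was -0.55 with limma at 0.5, -0.18 with WT replicate 3, and between -0.32 and 0.79 with 1 library left out.

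With the replicate number as a block, Il1a was also called with crystals in WT (3.16, adjusted p = 0.0329, edgeR) and in CD38KO (3.48, adjusted p = 0.038). The numbers were not taken as pairs in the main fit, and the block ended no call of a member.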
